A study of Mus musculus with 21 samples.

Results

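The regions described here are stretches of colon stromal chromatin that were called open in MRISC and in CD138 cells but in neither of the 2 other sorted populations. A region was a peak of the MRISC list, on chromosomes 1 to 19 or X, that shared at least 1 bp with a peak of the CD138 list and none with a peak of the CD34 SP or the Myofibroblast list. There were 6654 such regions among 177038 MRISC peaks (3.76%), and they covered 1.59 Mb. Counted from the other side, 7207 of 216790 CD138 peaks (3.32%) met the same rule. The regions were thus chosen by the peak calls of all 4 lists, so their absence from CD34 SP and Myofibroblast is the rule and not a result.

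Chromatin accessibility was measured by ATAC-seq, in which a transposase cuts DNA that is not packed by nucleosomes, in sorted stromal cells of the mouse colon. The groups were MRISC (named for Map3k2-regulated intestinal stromal cells), CD138 (which lack CD34 and carry CD138, a surface proteoglycan encoded by Sdc1), CD34 SP (CD34 single positive cells) and Myofibroblast, with 2 libraries each. All of them came from male C57BL/6 mice of 12 weeks with no treatment given in the labels, and all were sorted as gp38-positive cells without CD45, Epcam or CD31 on their surface. gp38 is podoplanin, a surface protein of fibroblasts, and the labels do not name the antibodies that separated the subsets. A single-cell library of gp38+CD90+ colon cells from wild-type female C57BL/6 mice of 12 weeks, at D3 of dextran sodium sulfate (DSS), was used for transcript levels. DSS is a detergent given in drinking water that injures the colon epithelium, so the cells of that library and those of the ATAC-seq differ in sex, treatment and gate. Whether the libraries of a population came from separate mice is not stated.

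Stromal cells under the colon epithelium form a gradient along the crypt. Cells near the crypt base supply R-spondins, which amplify Wnt signals, and secreted antagonists of bone morphogenetic proteins (BMPs), which keep stem cells dividing. Cells near the crypt mouth supply BMPs and noncanonical Wnts, which favour differentiation. Open chromatin away from gene starts often marks enhancers, DNA elements whose use differs more between cell types than that of promoters. A region open in a subset of related cells is thus a candidate element, and which gene it acts on cannot be read from its position alone.

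The sequences of 7 regions are printed here as examples. The first 3 are the regions that ranked highest in both lists, and the other 4 were chosen after their values were seen because the results below return to their genes. Each is the central 200 bases of the region. All are read 5′ to 3′ on the plus strand of GRCm38 (mm10), from the RefSeq genome. Capitals mark short words bound by transcription factor families, on either strand: ACANNNTGT (glucocorticoid receptor and its relatives), TTGGCA (NFI), GAGGAAGT (PU.1), TGACTCA (AP-1) and the palindromic EBF word.
Tnip3 (intron), chr6:65572033-65572232: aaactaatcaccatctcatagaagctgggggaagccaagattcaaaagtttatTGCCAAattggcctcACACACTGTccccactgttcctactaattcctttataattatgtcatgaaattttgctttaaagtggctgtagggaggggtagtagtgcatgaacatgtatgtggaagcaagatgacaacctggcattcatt
Cdh26 (intergenic), chr2:178513731-178513930: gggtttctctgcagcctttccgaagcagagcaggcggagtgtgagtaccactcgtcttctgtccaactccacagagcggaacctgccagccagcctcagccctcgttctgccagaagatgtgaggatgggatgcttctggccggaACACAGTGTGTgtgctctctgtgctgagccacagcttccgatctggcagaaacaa
Pank3 (intergenic), chr11:35750693-35750892: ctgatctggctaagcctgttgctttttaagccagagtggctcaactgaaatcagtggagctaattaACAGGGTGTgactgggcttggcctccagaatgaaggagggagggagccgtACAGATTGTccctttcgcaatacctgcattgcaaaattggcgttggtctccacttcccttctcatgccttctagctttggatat
Lrig1 (intron), chr6:94640318-94640517: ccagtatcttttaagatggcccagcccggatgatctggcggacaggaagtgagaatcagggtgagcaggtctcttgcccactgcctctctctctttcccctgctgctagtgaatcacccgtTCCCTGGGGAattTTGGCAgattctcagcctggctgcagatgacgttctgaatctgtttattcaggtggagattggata
Map3k3 (intron), chr11:106135026-106135225: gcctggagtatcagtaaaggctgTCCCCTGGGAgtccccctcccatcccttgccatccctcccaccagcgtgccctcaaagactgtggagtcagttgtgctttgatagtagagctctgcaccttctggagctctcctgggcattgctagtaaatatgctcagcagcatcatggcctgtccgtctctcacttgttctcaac
Cd81 (promoter), chr7:143059554-143059753: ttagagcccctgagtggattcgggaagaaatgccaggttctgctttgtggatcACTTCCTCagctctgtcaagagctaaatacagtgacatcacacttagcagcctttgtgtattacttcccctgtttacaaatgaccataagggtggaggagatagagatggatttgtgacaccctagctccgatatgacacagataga
Il33 (intron), chr19:29942563-29942762: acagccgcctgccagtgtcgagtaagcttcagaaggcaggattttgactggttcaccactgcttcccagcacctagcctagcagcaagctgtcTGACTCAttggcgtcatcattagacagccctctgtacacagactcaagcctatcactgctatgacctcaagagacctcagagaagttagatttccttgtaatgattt

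In the highest-ranked region, 18265 bp from the start of Tnip3, an NFI word and a glucocorticoid receptor word lie close together. The windows near Cdh26 and Pank3 each hold 2 matches of the glucocorticoid receptor word, which overlap in the Cdh26 window. The Lrig1 window holds an EBF word followed by an NFI word, and the Map3k3 window an EBF word. The Cd81 window holds a PU.1 word and the Il33 window an AP-1 word. The windows of the region ranked 4, nearest to Pkdcc, and of a region nearest to Hoxb8 held none of these words and are not printed. The printed windows thus do not show how common the words are. A match describes the letters and shows no binding.

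The 4 lists held 177038 (MRISC), 216790 (CD138), 143393 (CD34 SP) and 179331 (Myofibroblast) peaks on these chromosomes. Each list pools both libraries of its population, so no spread between libraries can be given, and depth is unknown. The scores could be ranked only within a list. Promoters of 5 surface protein genes (Pdpn, Thy1, Cd34 and Sdc1, whose proteins the labels name, and Cd81, which they do not) carried a peak in all 4 lists, so these promoters do not tell the populations apart. Promoter peaks at 8 genes of immune cells numbered 4 in MRISC, 4 in CD138, 0 in CD34 SP and 1 in Myofibroblast. At 8 endothelial genes they numbered 5, 7, 3 and 5 in the same order of lists, and at 10 epithelial genes 5, 7, 3 and 4. Of all 21755 protein-coding genes, 14716, 14923, 14228 and 14218 had a promoter peak in these lists.

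Regions shared by MRISC and CD138 alone were fewer than those MRISC shared with CD34 SP alone (20641, or 11.7% of MRISC peaks) and more than those it shared with Myofibroblast alone (4120, or 2.33%). They made up 7.46% of the 89167 MRISC peaks with no CD34 SP and no Myofibroblast peak; the other 82513 of these had no CD138 peak either. None of the 6654 regions was a peak of the MRISC specific list the authors deposited, and none overlapped a peak of the CD138 specific list. The regions thus lie outside both deposited sets of population-specific peaks. If those sets leave out peaks shared with another population, as their name says, this follows from the rule and is not a result.

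Most regions had middling scores in both lists. Their median percentile was 44.7 among MRISC peaks and 54.6 for the overlapping CD138 peak, and the median of the lower of the 2 percentiles was 32.0. The highest MRISC percentile was 93.9 and the highest lower percentile was 87.0. Of the highest quintile of MRISC peaks by score, 0.508% were regions, against 5.61% of the middle quintile; of the highest quintile of CD138 peaks, 1.42% were. The strongest peaks were rarely regions, and the 36109 MRISC peaks that overlapped all 3 other lists had a median percentile of 88.6. The 2 percentiles hardly moved together across regions (Spearman's rho 0.012, n = 6654 regions of the same 2 lists), whereas rho was 0.20 for the 20641 peaks shared with CD34 SP alone and -0.005 for the 4120 shared with Myofibroblast alone. Both percentiles lay above 50 in 1601 regions (24.1%), against 37.8% of the peaks shared with CD34 SP alone and 18.3% of those shared with Myofibroblast alone. These 1601 are called strong regions here.

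**Figure D1:**
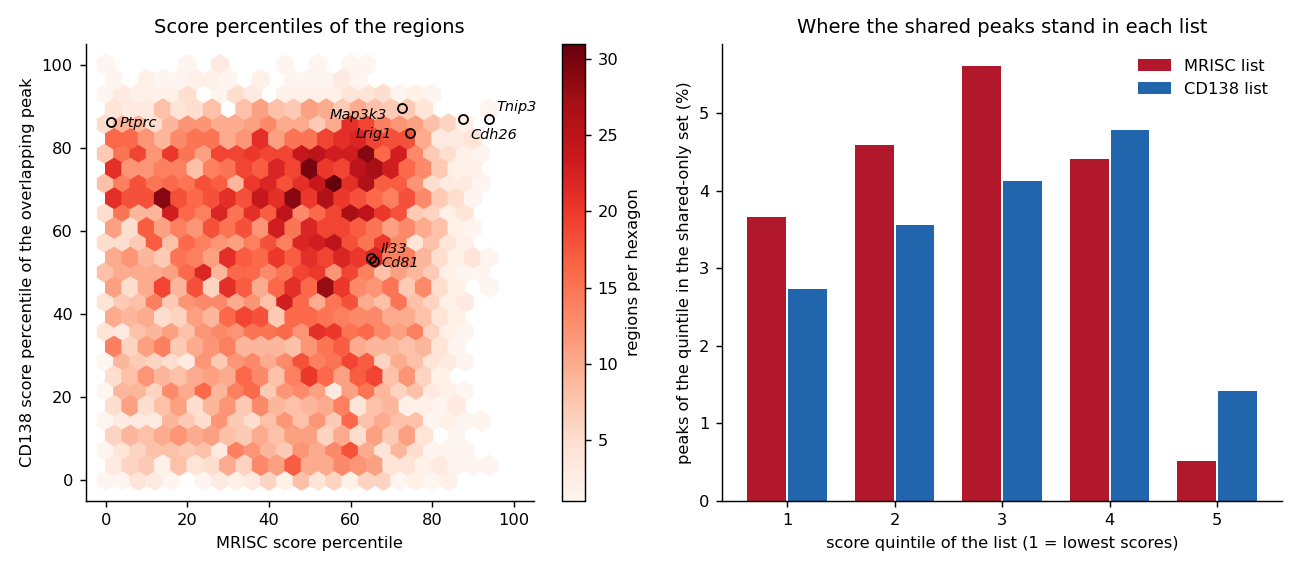
Left, score percentile of each region among MRISC peaks (x axis) and of its overlapping CD138 peak (y axis), as counts of regions per hexagon, with 7 named regions circled. Right, share of the peaks of each score quintile that are regions, for the MRISC list and the CD138 list; the share is highest in quintile 3 of MRISC (5.61%) and quintile 4 of CD138 (4.78%) and lowest in quintile 5 of both.

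The regions were narrow and their overlaps partial. The median width was 200 bp (range 4 to 1693 bp), the median overlap 102 bp, and the median share of the MRISC peak covered 53.5%, against 83.3% for peaks shared with CD34 SP alone and 50% for those shared with Myofibroblast alone. At the edge of the rule, 22 regions shared a single base with CD138 and 235 shared at most 10 bp, while 256 MRISC peaks without CD138 overlap lay within 10 bp of a CD138 peak. Another 88 peaks were left out because a CD34 SP or Myofibroblast peak reached into them by at most 10 bp. The median gap was 2908.5 bp to the nearest CD34 SP peak and 2638.5 bp to the nearest Myofibroblast peak, and 2003 regions (30.1%) had one of these within 500 bp. With a required overlap of 50% of each peak, for inclusion and exclusion alike, 6400 regions were found, but 2249 of them (35.1%) were regions of the main rule. If CD34 SP and Myofibroblast peaks had to be over 500 bp away, 4651 regions remained.

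The regions lay mostly in introns and between genes. Introns held 3170 (47.6%), intergenic sequence 2620 (39.4%), promoters (up to 1 kb around the start of a protein-coding gene) 450, coding exons 248 (3.73%) and UTRs 166 (2.49%). The promoter share was 6.76% (exact 95% interval 6.17 to 7.39%, which covers counting only), against 10.5% for peaks shared with CD34 SP alone, 7.43% for those shared with Myofibroblast alone, 12.6% of all MRISC peaks and 10.8% of all CD138 peaks. The intervals of the regions and of the Myofibroblast pair (6.64 to 8.27%) overlap. The share was 11.02% where overlaps had to reach 50% of each peak and 4.43% without peaks of the other populations within 500 bp. The median distance to a protein-coding start was 25831 bp, against 17190 bp for the CD34 SP pair and 22348.5 bp for the Myofibroblast pair. In windows of 200 bp centred on the regions, 12.0% of bases were masked as repeats and 49.1% were G or C. In those of all MRISC peaks the shares were 13.3% and 49.6%. The X chromosome held 52 regions (0.781%), against 2.57% of the CD34 SP pair, 0.413% of the Myofibroblast pair and 1.36% of all MRISC peaks.

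**Figure D2:**
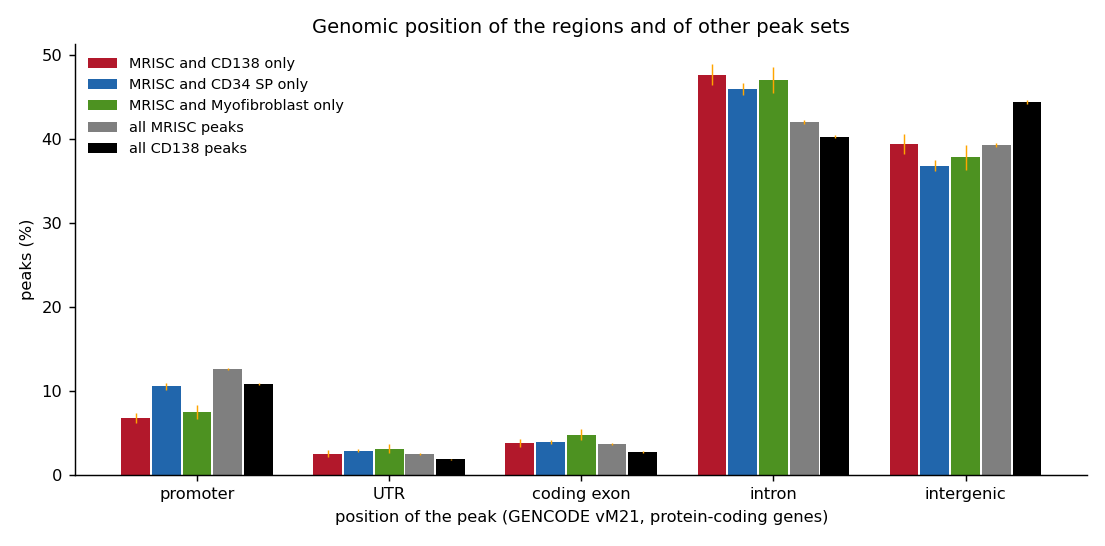
Share of peaks (y axis, %) at each kind of position (x axis) for the regions shared by MRISC and CD138 only, for the 2 other pair classes of MRISC, and for all MRISC and all CD138 peaks. Error bars are exact 95% binomial intervals for counting only; promoters hold 6.76% of the regions, and introns 47.6%.

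Short words of transcription factor families were then counted in 200 bp windows centred on the regions. The search used 30 words, both strands, and set the regions beside all MRISC and all CD138 peaks, which contain them, and beside the other pair classes. The AP-1 word TGACTCA, bound by Fos and Jun proteins that respond to stress and growth signals, was present in 559 regions (8.40%, exact 95% interval 7.75 to 9.09%). It was present in 16.0% of the peaks shared with CD34 SP alone, 9.03% of those shared with Myofibroblast alone, 9.65% of all MRISC peaks and 7.13% of all CD138 peaks. Among the 3 pair classes of MRISC, the AP-1 word was thus most frequent in the CD34 SP pair, and its shares in the regions and in the Myofibroblast pair were close.

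The word of CTCF, the protein that anchors chromatin loops, was searched as its core and was present in 338 regions (5.08%, interval 4.56 to 5.64%). It was present in 7.31% of strong regions, 4.10% of the CD34 SP pair, 2.09% of the Myofibroblast pair, 4.12% of all MRISC peaks and 3.74% of all CD138 peaks. Peaks shared by CD138 and CD34 SP alone held it in 5.41%, and MRISC peaks found in all 4 lists in 6.77%. The glucocorticoid receptor word, shared with related steroid receptors, was in 556 regions (8.36%, interval 7.70 to 9.05%), against 6.86% of the CD34 SP pair, 7.52% of the Myofibroblast pair, 6.89% of all MRISC peaks and 7.15% of all CD138 peaks. The NFI word was in 14.2% of regions and 15.9% of strong regions, against 14.4%, 13.0%, 12.5% and 11.9% of those sets in the same order. EBF, a family that includes the stromal factor Ebf1, had its word in 76 regions (1.14%, interval 0.901 to 1.43%) and in 1.81% of strong regions, against 0.698%, 1.02%, 0.770% and 0.611%. The PU.1 word, known from blood cells, was in 150 regions (2.25%, interval 1.91 to 2.64%), against 1.44%, 1.55%, 1.55% and 2.15%. For PU.1 the regions were thus close to all CD138 peaks, and peaks shared by CD138 and Myofibroblast alone held more (4.05%). Only the strong regions were picked by score, so their shares and those of the other sets are not like for like.

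Words rich in G and C depend on base composition, so the windows were split into 3 ranges of G and C content, at most 46%, between, and above 52%. The glucocorticoid receptor word was in 10.8%, 8.64% and 5.78% of the regions in the low, middle and high ranges, against 8.85%, 7.28% and 4.67% of all MRISC peaks. The CTCF core was in 5.0%, 4.95% and 5.29% of the regions, against 3.16%, 4.29% and 4.86% of all MRISC peaks. The EBF word was in 0.534%, 1.14% and 1.70% of the regions, against 0.412%, 0.747% and 1.13%. The shares of these 3 words were thus higher in the regions than in all MRISC peaks in each range. No intervals were computed within the ranges, so small differences there may lie within counting error. The FOX word TGTTTAC was in 3.17% of regions, between all MRISC peaks (2.94%) and all CD138 peaks (3.77%), while peaks shared by CD138 and CD34 SP alone held it in 6.10%. The SP word GGGCGGG, typical of promoters, was in 3.23% of regions, against 5.27% of all MRISC peaks and 4.79% of all CD138 peaks. In all, 16 of the 30 words were more frequent in the regions than in both full lists. The number was 15 or 16 under each of the other 4 ways of choosing windows or regions, but not always of the same words. IRF, ZEB and nuclear receptor words were among them in 3 of the 5 settings. The NF-kB word was in 2, and RUNX, ETS and TCF/LEF words in 1 each. Some of the 16 differences were smaller than the counting interval of the regions. The nuclear receptor word was in 13.99% of regions (interval 13.2 to 14.8%), against 13.94% of all MRISC peaks. The IRF word was in 2.92% (interval 2.52 to 3.35%), against 2.87% of all CD138 peaks. Peaks of pooled lists are not replicates, so no test was made on these shares.

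**Figure D3:**
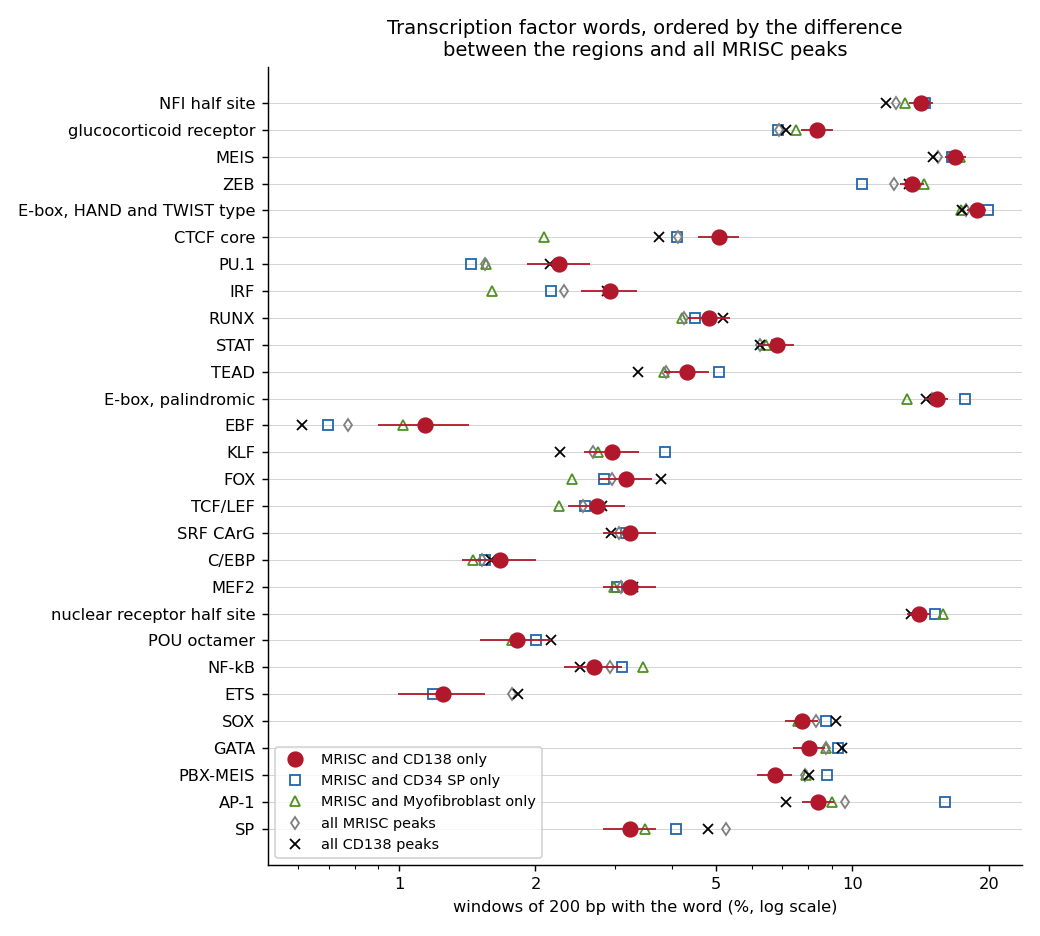
Share of 200 bp windows holding each word (x axis, %, log scale) for 28 of the 30 words, ordered by the difference between the regions and all MRISC peaks. Filled circles with bars are the regions with exact 95% intervals for counting only, and open symbols and crosses the other sets; NFI (14.2%) and glucocorticoid receptor words (8.36%) stand at the top and SP (3.23%) at the bottom.

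The 20 regions highest in both lists had lower percentiles of 80.0 to 87.0. Of these, 9 lay between genes, 7 in introns, 3 at promoters and 1 in a UTR. The first was in an intron near the start of Tnip3, which encodes a partner of the NF-kB inhibitor A20, at percentile 93.9 in MRISC and 87.0 in CD138. It was followed by regions nearest to Cdh26 (a cadherin), Pank3 (a kinase of coenzyme A synthesis), Pkdcc (a secreted tyrosine kinase), Srgap1 (a GTPase-activating protein of the Slit and Robo pathway) and Tfeb (a factor of lysosome synthesis). The next were nearest to Htr2a (a serotonin receptor), Cdc14a (a phosphatase), Ctnna3 (a catenin), Gm17581, Avpr1a (a vasopressin receptor), Cdk5rap2 (a centrosome protein) and Cd80 (a ligand of T cells). The last 7 were nearest to Cwc27, Srek1, Gramd1b, Ggh, Vapb, Lsm6 and Gstp2. The nearest peak of CD34 SP or Myofibroblast was 612 bp away at Cd80 and 1298 bp away at Gstp2. The region between genes nearest to Pank3 lay 18691 bp from its start, and that of Pkdcc 194405 bp from its start, so a nearest start can be far away.

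Transcripts of several of these genes were scarce in the single-cell library, where a level is given as CPM (UMIs of a gene per 1e+06 UMIs), pooled over all kept cells. Tnip3 had 0.38 CPM, Cdh26 0.05 CPM, Htr2a 0.041 CPM, Ctnna3 0.27 CPM and Cd80 0.29 CPM. Pank3 had 16.4 CPM, Pkdcc 21.8 CPM and Tfeb 10.3 CPM. These 8 levels describe single genes. Over the 1182 measured genes with a strong region in their window (the gene body with 10 kb on both sides), the median was 9.44 CPM, against 2.22 CPM for genes without one, and 49.2% reached 10 CPM, against 36.7%. Genes with a strong region also had longer windows (median 0.0872 Mb, against 0.0365 Mb), and the part of length in this difference was not tested.

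Of the 450 promoter regions, the highest in both lists was that of Tfeb (percentiles 84.2 in MRISC and 87.6 in CD138), followed by Gm17581 and Cd80. Others of the 10 highest were Gm10717, whose window is 100% repeat-masked, then Cmah (sialic acid hydroxylase), Slc24a2 (a calcium exchanger), Ifi207 (an interferon-inducible gene), Agmo (an ether lipid enzyme) and Tmprss2 (an epithelial protease). Over the whole annotation, 228 of 21755 protein-coding genes (1.05%) had a promoter peak in MRISC and in CD138 and in neither other list, whether or not those peaks overlapped each other. From the gene lists described next, these included Dkk1, Ptprc, S100a8, Cdh5, Vwf and Ms4a1.

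Of the 9 BMP antagonists, secreted proteins that keep BMPs from their receptors, 3 had a region in their window (6.60 per Mb of gene window, and 4.76% of the MRISC peaks there). Fstl1 had 2 and Bmper 1. Bmper's region, in an intron, stood at percentiles 67.5 in MRISC and 66.1 in CD138 and was 37392 bp from the nearest CD34 SP peak and 10546 bp from the nearest Myofibroblast peak. The stronger Fstl1 region stood at percentiles 56.0 and 43.8 and lay 403 bp from the nearest CD34 SP peak.

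Of all 21755 protein-coding genes, 4109 (18.9%) had a region in their window, and 1183 (5.44%) a strong one. The density over all gene windows was 3.85 regions per Mb, and regions were 3.52% of the MRISC peaks there. Long genes hold regions more easily, so each of the 25 gene lists is given with its density. Windows also differ in their number of MRISC peaks, so the share of those peaks that are regions is given beside densities well above 3.85. Of the 7 BMP ligands, 3 had a region (Bmp6 with 2, Bmp3 and Bmp5 with 1 each, 7.21 per Mb, 4.65% of MRISC peaks). Of the 4 R-spondins, Rspo3 had 1 region, with percentiles 16.9 and 54.6 (2.72 per Mb). Wnt ligands had a region in 6 of 11 genes (12.2 per Mb): Wnt9a had 2, and Wnt3, Wnt4, Wnt5b, Wnt9b and Wnt11 1 each. The Wnt windows were dense in MRISC peaks (270.0 per Mb, against 109.1 over all genes), and regions were 4.52% of these, against 3.52%. The Wnt5b region, for a noncanonical Wnt, stood at percentiles 57.1 and 79.8 and lay 12883 bp from the nearest CD34 SP peak. That region lay between genes, and its nearest start was that of Adipor2. Of the 9 Wnt antagonists, Dkk1 had 1 region (2.06 per Mb). Dkk1 blocks the Wnt co-receptor, and its window held 3 MRISC and 2 CD138 peaks and none of CD34 SP or Myofibroblast.

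TGF-beta genes, which drive matrix production, had a region in 8 of 10 (10.9 per Mb). Their windows held 247.1 MRISC peaks per Mb, of which regions were 4.42%, so the excess was smaller per peak than per Mb. The co-receptor Tgfbr3 had 4, Tgfb2 and Ltbp1 2 each, and Tgfb1, Tgfb3, Tgfbr1, Tgfbr2 and Ltbp2 1 each, none of them strong. Collagens had a region in 14 of 18 genes (19 regions, 7.98 per Mb), led by Col5a1 with 4, Col6a2 and Col6a3 with 2 each. The Col4a2 region, in an intron of a basement membrane collagen, stood at percentiles 74.7 and 83.6, and the Col4a3 region at 71.7 and 70.5. The regions were 3.28% of the MRISC peaks at the collagens, close to the 3.52% over all genes. Laminins and nidogens had one in 7 of 13 (6.34 per Mb, 4.41% of MRISC peaks), with 3 each at Lama2 and Lama3. The windows of the collagens held 243.1 MRISC peaks per Mb, against 109.1 over all genes, so collagens held more regions per Mb than all genes but about as many per MRISC peak.

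Transcription factors of gut mesenchyme had a region in 10 of 24 genes (18 regions, 5.01 per Mb, 2.42% of their MRISC peaks). Ebf1 had 6, all in introns, Gli2 and Meis2 2 each, and Gli3, Hand1, Hand2, Meis1, Runx1 and Zeb2 1 each. The Hand2 region stood at percentiles 74.6 and 79.8, that of Meis1 at 75.8 and 73.5, and the stronger Gli2 region at 67.6 and 73.5. Gli2 carries out Hedgehog signals, and Hand2 and Meis1 are factors of the embryonic mesenchyme. In the route from MAP3K2 to ERK5, the pathway that gave MRISC their name, 4 of 10 genes had 1 region each. These were Map3k3, Mef2a, Mef2c and Mef2d (4.37 per Mb, 2.78% of MRISC peaks). The Map3k3 region, in an intron of the kinase most like MAP3K2, stood at percentiles 72.6 and 89.6. Its nearest start was that of Limd2. The nearest CD34 SP peak was 20385 bp and the nearest Myofibroblast peak 22352 bp away. No region lay in the windows of the 9 AP-1 subunit genes, which held 366.1 MRISC peaks per Mb. Beyond the windows, 2 regions had Fos, 1 had Fosl2 and 1 had Jun as their nearest start.

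Guidance genes of the Slit, Robo and semaphorin families had a region in 6 of 14 (17 regions, 4.27 per Mb). Slit3 had 7 of them, all in introns, and the strongest stood at percentiles 79.9 and 77.4. A list of long genes known from neurons, most of them for adhesion or synapses, had a region in 10 of 15 (25 regions), but the long windows made that 1.08 per Mb. Macrod2, a member of the list that encodes an ADP-ribose hydrolase and no adhesion protein, had 6 of them, and the strongest stood at percentiles 92.1 and 69.2. PDGF and FGF genes had one in 4 of 15 (3.71 per Mb), of which Fgfr2 had 13 of 16; its annotated body with flanks spans 2.98 Mb, and only 1 region has the Fgfr2 start as its nearest. EGF family ligands had one in 2 of 9 (Ereg and Nrg1, 1.12 per Mb). Stromal chemokines and cytokines had one in 3 of 16 (Ccl11, Il33 and Lif, 6.14 per Mb, 2% of MRISC peaks). The Il33 region, at the gene of an alarmin cytokine, stood at percentiles 65.1 and 53.4.

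Among marker genes, the 5 surface protein genes had a region in 2 (20.3 per Mb, 5.71% of MRISC peaks), Cd81 with 3 and Sdc1 with 1. Cd81, which encodes a tetraspanin, had 19 MRISC, 11 CD138, 5 CD34 SP and 9 Myofibroblast peaks in its window, and 2 of its regions fall within 1 kb of an annotated start. Smooth muscle and myofibroblast markers had a region in 4 of 9 (11.004 per Mb, 6.48% of MRISC peaks). Tagln had 3, whose nearest starts were those of Pcsk7, Tagln and Sidt2. Interstitial cell and pericyte markers had a region in 3 of 6 (6.98 per Mb, 6.06%). Immune genes had a region in 3 of 8 (9.85 per Mb): Csf1r had 3, Ptprc and Itgam 1 each. These 5 regions were 17.2% of the MRISC peaks at immune genes, against 3.52% over all genes. The base is small, as the immune windows held 57.1 MRISC peaks per Mb, against 109.1 over all genes. Of the Csf1r regions, 1 also lies in the window of Pdgfrb and is counted in the PDGF and FGF list too. The Ptprc promoter region, at the gene of CD45, stood at percentile 1.16 in MRISC and 86.3 in CD138, so it was near the floor of one list and high in the other. Endothelial markers had a region in 4 of 8 (7.52 per Mb, 4.65% of MRISC peaks; Cdh5, Kdr, Pecam1 and Vwf), plasma and B cell markers in 2 of 11 (4.90 per Mb; Xbp1 and Pou2af1) and mesothelial markers in 1 of 6 (4.38 per Mb; Wt1). Of the endothelial regions, that of Vwf lay 362 bp from the start of Ano2, and that of Pecam1 was nearest to the start of Milr1. Epithelial and glial markers had none in 10 and 8 genes. The sort removed CD45, CD31 and Epcam positive cells, and the part of other cells in the regions at immune and endothelial genes was not tested.

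**Figure D4:**
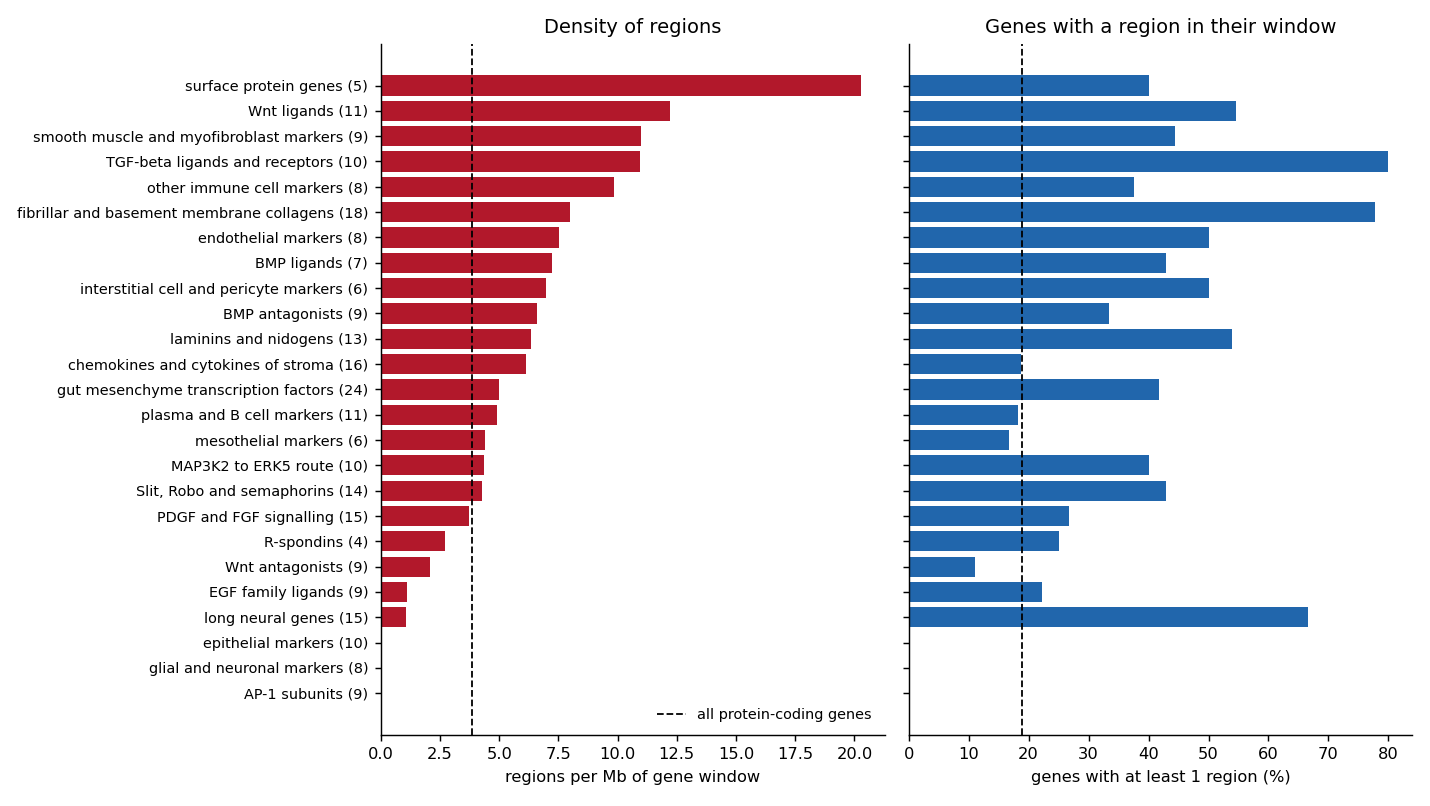
Left, regions per Mb of gene window (x axis) for each of the 25 gene lists, with the number of genes in brackets; right, share of the genes of a list with at least 1 region (x axis, %). Dashed lines give all protein-coding genes (3.85 regions per Mb and 18.9%); the long neural genes stand above the line on the right (66.7%) and below it on the left (1.08 per Mb).

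By number of regions, the genes with the most were Gm20388 (44, in a model whose window of 4.45 Mb spans many other genes), Fgfr2 (13), Lrmda (9), and Agap1, Camta1, Fndc3b and Tcf4 (8 each). They were followed by Gse1, Rora, Slit3, Tmtc2 and Zmiz1 with 7 each, and 2010111I01Rik, Arhgap24 and Arid1b with 6 each. Agap1, which encodes a regulator of endosomal traffic, had 5 strong ones, and one stood at percentiles 74.0 and 85.8. Tcf4, an E protein, had 53 MRISC peaks and 91 CD138 peaks in its window. By density, among genes with at least 4 regions, Tsku led with 4 in a window of 0.031 Mb (130 per Mb). Tsku encodes tsukushi, a secreted proteoglycan that binds BMPs and Wnt receptors, and 3 of its 4 regions were strong. Next came Rab3il1, Cd180, Capn5, Lrig1, Ccdc6, Ddc, Baiap2, Nfkb1 and Manba, with 47.3 to 70.5 per Mb.

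The spacing of the regions was counted without the same count for other peak sets. Whether they gather more or less than other peaks was thus not tested. No other region lay within 25 kb of 4942 regions (74.3%), and 466 (7.003%) stood in runs of 3 or more with gaps of at most 25 kb. The longest runs, of 6 regions, were at Lrig1, over 56.1 kb, and across the HoxD cluster, over 60.0 kb. Lrig1 encodes a membrane protein that restrains EGF receptors, and its 6 regions had MRISC percentiles of 20.03 to 80.7 and CD138 percentiles of 15.2 to 83.6. The Lrig1 window held 35 MRISC and 42 CD138 peaks. The HoxD run lay between Evx2 and Hoxd4, and its region at the Hoxd3 promoter stood at percentiles 63.2 and 67.8. A run of 5 in the HoxB cluster, over 35.4 kb, lay between Hoxb9 and Hoxb6, and its region nearest to Hoxb8 stood at percentiles 70.2 and 73.0. Hox genes set position along the body axis, and posterior members are used in the colon. These runs were picked for their number of regions and get no test.

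The single-cell library was used to ask whether genes with a region were higher in cells that resemble both populations by UMIs of Cd34, Cd81 and Sdc1. Of 11376 kept cells, 1888 had Cd34 and Cd81 UMIs without Sdc1, 1005 had Sdc1 without Cd34, and 3773 had Cd34 without Cd81 or Sdc1. The median depth was 5919.5, 6633 and 5810 UMIs, and 4710 cells fell in none of these classes. The classes only approximate the sorted gates, because 1 missed UMI moves a cell and the antibodies for MRISC are not named in the labels. With 1 library there is no spread between samples and no test.

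Among 8114 genes of at least 10 CPM, 98 (1.21%) were at least 1.5-fold higher in both the Cd34 and Cd81 class and the Sdc1 class than in the Cd34 class. Of the 1971 such genes with a region, 20 (1.01%) were, a share near that of all genes. Counted for each class by itself, with these 20 included, 95 genes with a region (4.82%) were higher in the Cd34 and Cd81 class than in the Cd34 class, beside 3.65% of all genes and 7.06% of the genes with a strong region. In the Sdc1 class 112 (5.68%) were higher, beside 5.61% of all genes. Lower in both were 15 genes with a region (0.761%), beside 0.468% of all genes. When each region was given to its nearest start, which gave 4403 protein-coding genes (20.2%) a region, 35 of 2107 genes (1.66%) were higher in both. Genes with a region had longer windows (median 0.0657 Mb, against 0.0344 Mb without) and more often reached 10 CPM (48.1%, against 34.9%).

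Spink4 and Tff3, which encode secreted proteins of goblet cells, had the largest lower fold of the 20. Spink4 had 38.8 CPM in the Cd34 and Cd81 class (exact Poisson 95% interval 35.4 to 42.5) and 83.1 in the Sdc1 class (76.4 to 90.1), against 4.05 in the Cd34 class (3.26 to 4.97), and 43.9 CPM in empty droplets. Tff3 had 10.5 and 6.56 CPM in the same 2 classes, against 0.889 in the Cd34 class and 14.1 CPM in empty droplets. The 10 epithelial markers summed to 59.7 CPM in the Cd34 and Cd81 class and 213.1 in the Sdc1 class, against 8.76 in the Cd34 class. The part of free RNA and of epithelial cells in the levels of these 2 genes was not tested.

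Next by lower fold were Slpi and Nfkbiz. Slpi, a protease inhibitor, had 257.1 CPM in the Cd34 and Cd81 class and 37.4 in the Sdc1 class, against 9.96 in the Cd34 class. Nfkbiz, a co-regulator of NF-kB, had 203.9 and 79.2 CPM, against 33.7. Socs3, a feedback inhibitor of cytokine signals that stood further down, had 1010.0 and 642.1 CPM, against 367.7. In empty droplets Slpi had 75.4 CPM, Nfkbiz 104.5 CPM and Socs3 790.2 CPM, all above the levels in the Sdc1 class. Mesothelial markers also differed: the 6 of them summed to 255.2 CPM in the Cd34 and Cd81 class and 98.9 in the Sdc1 class, against 9.73 in the Cd34 class, and their part in these levels was not tested. The matrix gene Col6a3 had 199.3 and 222.9 CPM, against 102.0. Adm (adrenomedullin) had 244.5 and 195.7 CPM, against 99.1, and F3 (tissue factor) 72.4 and 64.5 CPM, against 29.3. Empty droplets held 182.7 CPM of Col6a3, 154.7 CPM of Adm and 59.4 CPM of F3, below both classes. The others of the 15 highest, by falling lower fold, were Ramp1, Cystm1, Plxdc2, Sgk1, Hk2, Arid5a and Csrp2, with lower folds of 1.63 to 2.28. In empty droplets Ramp1 (19.9 CPM) and Arid5a (34.0 CPM) stood above both classes. Cystm1 (21.97 CPM), Sgk1 (40.2 CPM) and Csrp2 (82.8 CPM) stood above one of them, and Plxdc2 (54.6 CPM) and Hk2 (80.9 CPM) below both.

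**Figure D5:**
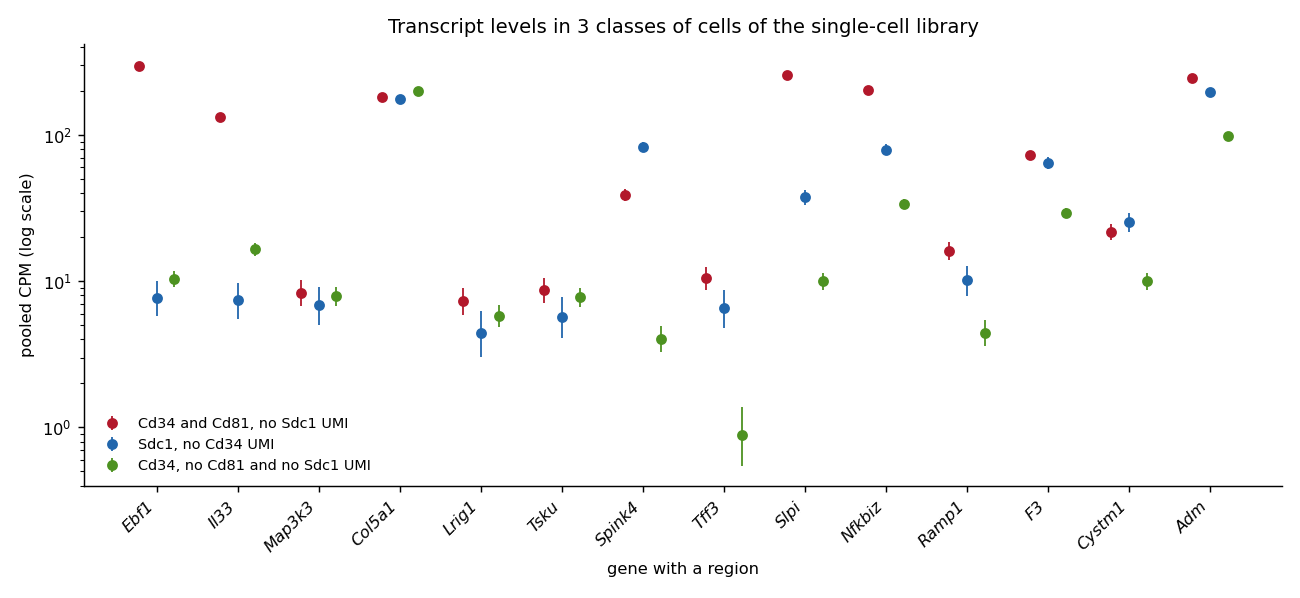
Pooled CPM (y axis, log scale) of 14 genes with a region (x axis) in the cells with Cd34 and Cd81 but no Sdc1 UMI, with Sdc1 but no Cd34 UMI, and with Cd34 but no Cd81 or Sdc1 UMI. Bars are exact 95% Poisson intervals for counting only; Spink4 and Tff3 are the lowest of the right-hand 8 in the Cd34 class, at 4.05 and 0.889 CPM, and Lrig1 and Map3k3 lie at similar levels in all 3 classes.

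Ebf1 had 295.6 CPM in the Cd34 and Cd81 class and 7.71 in the Sdc1 class, against 10.4 in the Cd34 class. Il33 had 133.8 and 7.42 CPM, against 16.5. Empty droplets held 59.0 CPM of Ebf1 and 45.6 CPM of Il33. For Ebf1 and Il33 the level was high in the Cd34 and Cd81 class alone, while their regions were called in both sorted populations by the rule. Most of the CD138 calls at Ebf1 were low in their list. Their CD138 percentiles were 3.37, 24.6, 12.7, 57.3, 58.6 and 12.6, in order along the chromosome. Map3k3 had 8.34 and 6.85 CPM, against 7.87, and Lrig1 7.27 and 4.42 CPM, against 5.78. Col5a1, the collagen with most regions, had 180.6 and 176.8 CPM, against 201.0. Among the secreted antagonists, Bmper had 14.9 and 11.6 CPM, against 2.00, and 8.79 CPM in empty droplets. Bmper is not among the genes counted above as higher in both classes, which had to reach 10 CPM over all kept cells. The 9 BMP antagonists together summed to 1185.3 and 839.0 CPM, against 778.3. Dkk1 had no UMI in any class.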

How the data were processed

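ATAC-seq peak lists of 4 sorted populations (2 libraries each, 8 of 21 samples) and 1 single-cell library were used; the 12 bulk RNA samples were not analysed here. Each deposited peak has a score, and the authors' tools were bcl2fastq and bedtools, with mm10 as the build, per the submitters' processing notes. What the score measures, which program called the peaks and how libraries were joined is not stated in the labels or files, so scores served only to rank peaks within a list. UMI counts per gene and barcode were deposited as whole numbers, made by the authors with bcl2fastq, Cell Ranger (version 3.0.0 per the file headers) and Seurat.

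Peaks on 20 chromosomes (1 to 19, X) were kept. Overlaps were computed with an interval search that was tested on simulated peaks against bedtools 2.31.1, and tables were made with pandas 2.3.3 and numpy 2.4.6. Positions came from GENCODE vM21 protein-coding genes, counted from 1; promoters reach 1 kb from a start and gene windows 10 kb beyond the body. Intervals are exact at 95% (Clopper-Pearson for shares, Poisson for counts; scipy 1.17.1) and cover counting error only. Sequence was read with pysam 0.24.0 from GRCm38, searching 30 words on both strands in 200 bp windows. Repeat masking is that of the genome's lower-case letters.

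Barcodes were kept from 500 detected genes upward and up to a mitochondrial share of 10% (11376 of 11484; doublets were not removed). UMIs were pooled per class of cells and given as CPM, and genes of at least 10 CPM were compared by a fold of 1.5. Empty droplets were raw barcodes of 1 to 100 UMIs.

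The genes named are the 15 with most regions, the 10 densest with at least 4 regions, those nearest to the 20 regions and 10 promoter regions with the highest lower percentile, genes of the 25 lists, and the 15 genes with a region and the highest lower fold in cells; a few genes under this rule are not reported here. The Hox clusters and the run at Lrig1, and the choice of genes whose single-cell levels are printed outside the last of these, came after values were seen. The regions, gene lists and words were chosen with earlier results of these data known. Alternatives covered overlap, distance, score, promoter, window and fold settings; those on strong genes in cells and on shared regions were chosen after seeing the data.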

Additional observations from a re-analysis of the deposited data

How the results depend on the processing

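The number of regions was 3887 when peaks had to lie above the median score of their own list and 4117 when each list was trimmed to the 143393 best-scored peaks; of these, 1601 and 3992 were regions of the main rule. It stayed within 1.5 times of 6654 under the 3 other settings (4651 to 7207). The promoter share was 10.8% with promoters of 2 kb, 11.02% with overlaps of 50% of both peaks, 4.43% without peaks of the other populations within 500 bp and 7.06% for strong regions. Genes with a region numbered 8015 with 50 kb on both sides, 1183 for strong regions and 4403 by nearest start. Genes with a region that were higher in both classes of cells numbered 7 at a fold of 2, 10 among genes of at least 50 CPM, 35 by nearest start, 6 for strong regions and 25 with classes set by 2 UMIs, against 20. Among the shares of single words, 44 of 120 alternatives moved beyond the counting interval, mostly with 400 bp windows. The cause of these shifts was not tested, beyond the wider windows and fewer peaks that the settings themselves impose.

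No paired analysis was possible because each population has 1 pooled peak list and the single-cell data are 1 library; for the same reason no fit without a library was run.

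Membership rests on calls near the lower limit of 4 lists whose depth is unknown: an absent CD34 SP or Myofibroblast peak means that none was called, not that the chromatin was closed. A short overlap counts as much as a full one, and the score of one list cannot be set against that of another. Positions give no target gene. The single-cell classes were cut from 3 genes with few UMIs, in treated female mice, so they stand only loosely for the sorted populations.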
